A study of Mus musculus with 27 samples.

Results

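The TGF-beta group comprised 9 genes, taken from the 37310 genes of the expression table by their symbols. They were the ligands Tgfb1, Tgfb2 and Tgfb3, the latent TGF-beta binding protein Ltbp2, the receptors Tgfbr1 and Tgfbr2, the inhibitory Smad7, and the matrix genes Ctgf and Cyr61. All 9 were among the 15387 genes with enough reads to be tested. RNA-seq libraries had been made from MEFs, mouse embryonic fibroblasts grown as primary cultures from mid-gestation embryos whose head, limbs and inner organs had been removed. The 12 libraries formed 4 groups of 3, female wild type, female Firre KO, male wild type and male Firre KO. In the KO mice, recombination between loxP sites had removed the whole Firre locus, which encodes a nuclear long noncoding RNA on the X chromosome, together with its promoter. No treatment was listed for any group. The labels do not say whether replicates came from separate embryos or cultures, so p-values measure only the spread between these libraries.

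TGF-beta ligands are secreted as latent complexes that are stored in the extracellular matrix, partly through latent TGF-beta binding proteins. The active ligand brings the type II receptor Tgfbr2 and the type I receptor Tgfbr1 together, and the receptors phosphorylate Smad2 and Smad3, which act in the nucleus with Smad4. Smad7 is induced by the pathway and blocks the receptors. Ctgf and Cyr61 are secreted matricellular proteins that are induced in fibroblasts by TGF-beta and by the Yap and Tead factors.

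Promoter sequences are shown for the gene with the largest difference between groups (Ltbp2), for a target gene (Cyr61) and for a ligand (Tgfb2), because they hold the letters that Smad or Tead factors are known to bind. The sequences are the 250 bases upstream of the transcription start in RefSeq (build GRCm38.p6), which had an entry for 6 of the 9 genes. Ltbp2 (chr12:84876492-84876741, minus strand), Cyr61 (listed as Ccn1, chr3:145649986-145650235, minus strand) and Tgfb2 (chr1:186705990-186706239, minus strand) are printed 5′ to 3′ on the strand of the gene. Capitals mark the Smad box (CAGAC, or GTCTG on the other strand) in Ltbp2 and Tgfb2 and the Tead motif (GGAATG, or CATTCC on the other strand) in Cyr61.
Ltbp2: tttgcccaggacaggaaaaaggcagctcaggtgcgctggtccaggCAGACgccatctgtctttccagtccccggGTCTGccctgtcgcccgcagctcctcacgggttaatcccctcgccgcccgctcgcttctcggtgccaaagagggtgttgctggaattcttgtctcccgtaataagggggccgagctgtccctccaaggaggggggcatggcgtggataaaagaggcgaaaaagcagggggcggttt
Cyr61: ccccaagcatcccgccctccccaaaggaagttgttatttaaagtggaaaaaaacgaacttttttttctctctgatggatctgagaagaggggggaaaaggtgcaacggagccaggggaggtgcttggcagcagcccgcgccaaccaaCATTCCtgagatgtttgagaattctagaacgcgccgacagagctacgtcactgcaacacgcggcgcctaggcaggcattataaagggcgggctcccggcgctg
Tgfb2: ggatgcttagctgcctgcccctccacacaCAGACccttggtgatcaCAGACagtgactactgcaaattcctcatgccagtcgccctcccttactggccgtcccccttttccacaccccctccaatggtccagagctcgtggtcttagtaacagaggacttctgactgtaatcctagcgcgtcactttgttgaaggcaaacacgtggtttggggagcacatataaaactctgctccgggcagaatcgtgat

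Both strands of each promoter were searched for 4 motifs, none of which overlapped another in these windows. The Smad boxes of Ltbp2 lay at positions -205 to -201 and, on the opposite strand, -176 to -172, counted from the base before the start as -1. Those of Tgfb2 lay at -221 to -217 and at -204 to -200, and the Tead motif of Cyr61 lay at -103 to -98 on the opposite strand. A Smad box was also found in the promoter of Tgfbr2 and in the second of the promoters listed for Tgfbr1, while the Tgfb1 promoter held none of the 4 motifs. Among all 32841 promoters of the same length, 42.2% held a Smad box, 12.6% the Tead motif, 6.75% the AP-1 motif (TGANTCA) and 1.47% a CArG box. A Smad box was therefore a frequent match, and these matches are descriptions of the letters only.

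Levels of a gene between libraries are given in CPM, counts scaled to 1000000 per library after TMM normalization. Firre itself ranged from 1.99 to 2.43 CPM in the female and from 4.48 to 4.95 CPM in the male libraries of wild type, and had no counts in any of the 6 KO libraries. Libraries held 42986516 to 65454660 expected counts, and every male library was deeper than every female library. Replicate 3 of male wild type and replicate 3 of male KO stood apart from the other male libraries (chi-square per degree of freedom 35.2 to 41.9 within their groups, compared with 7.11 to 12.8 for the other male pairs). Values without them are given where they change a call or a count named below. Of 10 fibroblast markers all 10 had counts in every library. Their summed level was 8241.5 to 9429.7 CPM in female and 9657.8 to 11535.5 CPM in male libraries. Vim alone gave 5126.4 to 5779.3 CPM in female and 4704.9 to 5449.1 CPM in male libraries, while Lum was at 0.356 to 1.15 CPM in male libraries. Sex, embryo of origin and sequencing depth cannot be told apart in the comparisons of female with male MEFs. In bulk RNA, fewer cells of a type and less RNA per cell cannot be told apart either.

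The 9 genes covered a wide range of abundance. Levels between genes were compared per length, in TPM, for which counts were divided by the length of the merged exons and scaled to 1000000 per library. Over the 12 libraries Ctgf had a mean of 3574.9 ± 285.5 TPM (SD, n = 12), which ranked 26 among the tested genes, and Cyr61 had 1562.5 ± 78.7 TPM and rank 90. Tgfb3 followed with 291.0 ± 54.0 TPM. Both matricellular genes were above Tgfb3, and Tgfb3 above all remaining genes of the group, in 12 of 12 libraries.

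The lower levels lay closer together. Ltbp2 had 73.7 ± 38.3 TPM, Smad7 53.3 ± 12.5 TPM and Tgfb2 40.2 ± 5.55 TPM. Smad7 exceeded Tgfb2 in 6 of 6 male and 4 of 6 female libraries, with either length. In female wild type the order of means was reversed, with Tgfb2 at 46.6 ± 5.42, Smad7 at 42.0 ± 2.68 and Ltbp2 at 40.3 ± 5.69 TPM (SD, n = 3 each). Tgfb1 (28.1 ± 2.46 TPM), Tgfbr1 (26.6 ± 2.16 TPM) and Tgfbr2 (26.5 ± 2.84 TPM) had nearly the same level. Tgfbr1 exceeded Tgfbr2 in 1 of 6 female and in 5 of 6 male libraries, and with the longest transcript in place of the merged exons in 4 of 6 and 6 of 6 (means 25.7 and 22.6 TPM), so the order of the receptors in female libraries depended on the length used. In female wild type Tgfbr2 was at 29.6 ± 1.11 TPM and Tgfbr1 at 27.0 ± 0.847 TPM, and in male wild type they were at 24.6 ± 1.83 and 26.9 ± 1.39 TPM (SD, n = 3 each). Tgfb1 exceeded Tgfbr1 in 10 of 12 libraries. Ltbp2 exceeded Smad7 in 6 of 6 male and 2 of 6 female libraries, with either length (means 75.9 and 47.9 TPM with the longest transcript). Tgfb3 was thus the most abundant ligand transcript in these fibroblasts, above Tgfb2 and Tgfb1 in every library.

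**Figure D1:**
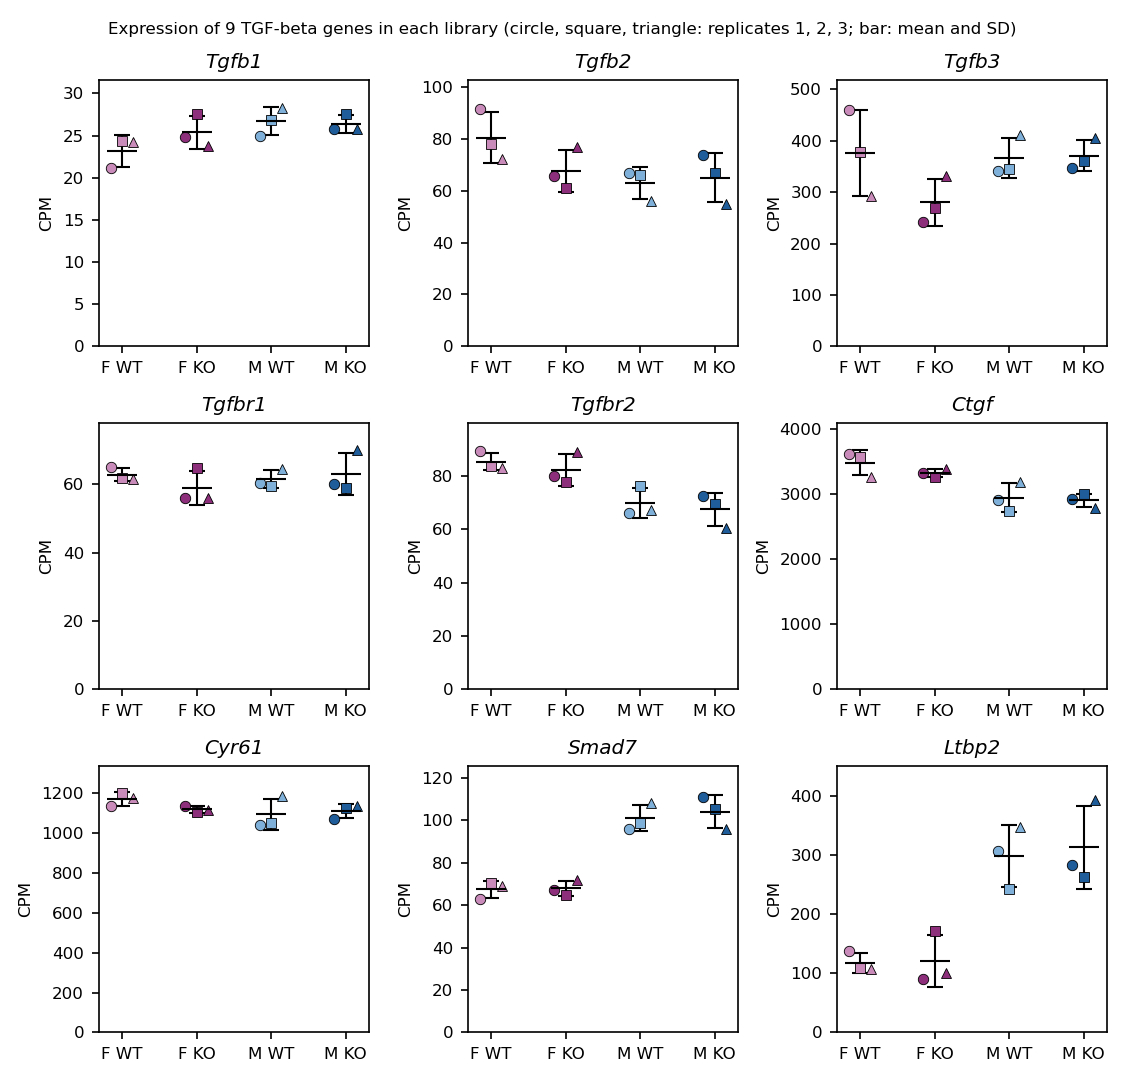
Level of each of the 9 genes (y axis, CPM on a linear scale from 0) in the 12 libraries by group (F, female; M, male; WT, wild type). Symbols stand for replicates 1, 2 and 3 and bars for the mean and SD of 3 libraries. Wild-type and KO libraries of the same sex overlap for every gene, while Ltbp2 and Smad7 are lower in all 6 female than in all 6 male libraries.

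To ask whether loss of Firre altered the TGF-beta group, KO and wild-type MEFs were compared within each sex by the quasi-likelihood test of edgeR, and p-values were adjusted by Benjamini-Hochberg over all 15387 genes. A gene was called where the adjusted p was under 0.01 and the log2 fold change was over 1 in size. None of the 9 genes was called in female or in male MEFs, and none passed an adjusted p under 0.05 alone. Across all tested genes, the first rule called 0.0065% in each sex, and the second called 0.013% in female and 0.0065% in male MEFs. At an unadjusted p under 0.05, 1 of 9 genes differed in female MEFs (Tgfb3) and 0 of 9 in male MEFs, beside 7.55% and 2.06% of all genes. DESeq2 gave the same counts for the group. With only the libraries compared in the fit there were 2 of 9 in female and 0 of 9 in male MEFs, beside 12.5% and 1.36% of all genes. KO and wild-type values overlapped for all 9 genes in both sexes, while they did not overlap for 19.2% of all genes in female and 5.3% in male MEFs. The median log2 fold change of the group was -0.066 in female and 0.020 in male MEFs, and that of all tested genes was -0.00032 and -0.0041.

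Tgfb3 (ENSMUSG00000021253.6; mm9 chr12:87397694-87419991, minus strand) encodes the third TGF-beta ligand and had the largest difference between KO and wild type. In female wild-type libraries it was at 459.2, 377.5 and 292.2 CPM, and in female KO libraries at 241.5, 269.7 and 330.5 CPM. The lowest wild-type library lay below the highest KO library, so the groups overlapped. The log2 fold change was -0.42 (SE 0.156, 95% interval -0.765 to -0.081), with an unadjusted p of 0.0197 and an adjusted p of 0.58 (edgeR). Over 13 alternative settings the log2 fold change ran from -0.58 to -0.26 and the adjusted p from 0.376 to 0.995. It was -0.26 without replicate 1 of female wild type, the library with the highest level.

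In male MEFs, Tgfb3 was at 341.2, 345.6 and 412.1 CPM in wild type and at 347.5, 360.3 and 404.6 CPM in KO. Libraries with the same number were close to each other and the groups overlapped throughout. The log2 fold change was 0.018 (95% interval -0.323 to 0.358). The difference between the sexes in the KO effect was -0.44 for Tgfb3 (SE 0.22, unadjusted p = 0.0695, adjusted p = 1.0, edgeR), and -0.27 without replicate 1 of female wild type. No gene of the group passed that test of the difference, at an adjusted or an unadjusted p under 0.05, by edgeR or by DESeq2. Across all genes it called 0% by either rule and 3.19% at an unadjusted p under 0.05.

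Tgfb2 (ENSMUSG00000039239.8; mm9 chr1:188447065-188529871, minus strand), a ligand needed for the development of many organs, was at 91.4, 77.8 and 72.1 CPM in female wild type and 65.5, 61.0 and 76.7 CPM in female KO. One KO library lay among the wild-type values. The log2 fold change was -0.25 (SE 0.126, adjusted p = 0.691, edgeR). In male MEFs it was at 66.9, 65.8 and 56.0 CPM in wild type and 73.7, 66.6 and 54.8 CPM in KO, again with overlap. Both libraries numbered 3 had the lowest level of their group.

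Tgfb1 (ENSMUSG00000002603.9; mm9 chr7:26472021-26490096, plus strand), the ligand best known for its part in fibrosis and immune control, stayed within 21.1 and 28.3 CPM in all 12 libraries. It was at 21.1, 24.4 and 24.2 CPM in female wild type and at 24.8, 27.6 and 23.8 CPM in female KO (log2 fold change 0.13, SE 0.0755, adjusted p = 0.723, edgeR). Male wild-type libraries were at 25.0, 26.9 and 28.3 CPM and male KO libraries at 25.8, 27.6 and 25.8 CPM. In female KO MEFs none of the 3 ligands passed the adjusted threshold, and single libraries moved their values. The log2 fold change of Tgfb1 was 0.064 without replicate 1 of female wild type and 0.066 without replicate 2 of female KO, and that of Tgfb2 was -0.15 without replicate 1 of female wild type.

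Ltbp2 (ENSMUSG00000002020.8; mm9 chr12:86124162-86217482, minus strand, 36 exon blocks) encodes a matrix protein of the latent TGF-beta binding family. It was at 137.4, 109.2 and 106.5 CPM in female wild type and at 90.7, 171.2 and 99.7 CPM in female KO. Replicate 2 of female KO was the highest and replicate 1 the lowest of these 6 libraries. Its interval for the KO effect was the widest of the group, -0.489 to 0.559 around a log2 fold change of 0.035. In male MEFs it was at 306.0, 243.1 and 347.3 CPM in wild type and 282.3, 262.7 and 393.6 CPM in KO, with a log2 fold change of 0.066 (95% interval -0.451 to 0.584).

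The receptors differed little between KO and wild type. Tgfbr1 (ENSMUSG00000007613.9; mm9 chr4:47366094-47427803, plus strand) ranged from 55.9 to 70.0 CPM over all libraries, with log2 fold changes of -0.092 in female and 0.033 in male KO MEFs. The female value ran from -0.17 (without replicate 2 of female KO) to -0.055 with 1 library left out. Tgfbr2 (ENSMUSG00000032440.5; mm9 chr9:115993415-116084383, minus strand) was at 89.2, 83.7 and 83.0 CPM in female wild type and 79.9, 77.5 and 88.8 CPM in female KO. It was at 66.2, 76.1 and 67.1 CPM in male wild type and 72.4, 69.4 and 60.3 CPM in male KO. Every female value exceeded every male value, within wild type and within KO. The log2 fold changes for the KO were -0.055 and -0.051, with adjusted p = 0.904 and 1.0 (edgeR). With 1 library left out, the female value of Tgfbr2 ran from -0.115 to -0.016.

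Smad7 (ENSMUSG00000025880.5; mm9 chr18:75527183-75555589, plus strand), the feedback inhibitor of the receptors, was at 62.9, 70.5 and 69.3 CPM in female wild type and 67.1, 65.0 and 71.8 CPM in female KO. Male libraries were at 96.1, 99.0 and 108.1 CPM in wild type and 111.0, 105.4 and 95.8 CPM in KO. The 6 female libraries lay well below the 6 male libraries, and KO and wild type were intermingled in both sexes. The log2 fold change for the KO was 0.0083 in female (95% interval -0.143 to 0.16) and 0.043 in male MEFs (95% interval -0.107 to 0.192). Without both male libraries numbered 3 the male value was 0.15, at an unadjusted p under 0.05 and an adjusted p of 1.0 (edgeR).

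Among the target genes, Ctgf (ENSMUSG00000019997.4; mm9 chr10:24315248-24318489, plus strand) was at 3612.2, 3557.9 and 3260.9 CPM in female wild type and 3318.6, 3260.6 and 3377.4 CPM in female KO. It was at 2911.5, 2734.9 and 3174.5 CPM in male wild type and 2916.5, 2989.2 and 2788.6 CPM in male KO. Values of KO and wild type overlapped in both sexes, and all female libraries were above all male libraries. The log2 fold change for the KO was -0.067 in female (95% interval -0.192 to 0.058) and -0.021 in male MEFs (95% interval -0.146 to 0.104). With 1 library left out, the female value ran from -0.112 to -0.039.

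Cyr61 (ENSMUSG00000028195.3; mm9 chr3:145309935-145312949, minus strand) was the steadiest gene of the group, with a 1.15-fold range over all 12 libraries. It was at 1135.1, 1203.0 and 1175.8 CPM in female wild type, 1138.1, 1104.4 and 1113.7 CPM in female KO, 1042.9, 1053.0 and 1184.2 CPM in male wild type and 1068.5, 1123.7 and 1133.9 CPM in male KO. Wild type and KO overlapped in each sex, and the 3 female wild-type libraries were above the 3 male KO libraries. The 95% intervals for the KO effect on the log2 scale were -0.176 to 0.044 in female and -0.09 to 0.13 in male MEFs, the narrowest of the 9 genes.

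**Figure D2:**
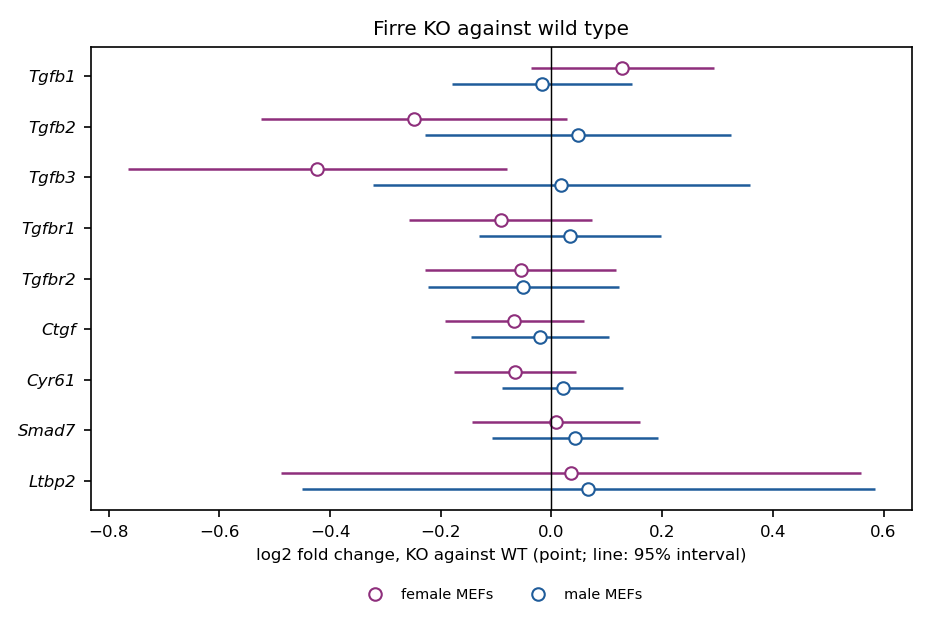
Log2 fold change of Firre KO against wild type (x axis) for each of the 9 genes in female and male MEFs. Points are the edgeR estimates from 3 against 3 libraries and lines their 95% intervals, and open symbols stand for an adjusted p of 0.05 or more. Every interval includes 0 except that of Tgfb3 in female MEFs (-0.765 to -0.081), whose adjusted p was 0.58.

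The same fit gave the comparison of female with male MEFs, separately in wild type and in KO, which share no library with each other. They share the estimate of the spread, and male libraries with the same number deviated together across genotypes. Agreement between the genotypes was therefore not shown to be independent support. Ltbp2 and Smad7 were lower and Ctgf and Tgfbr2 higher in female MEFs of both genotypes, at an adjusted p under 0.05. These 4 of 9 genes passed that threshold with the same sign in both genotypes, as did 30.2% of all tested genes. In wild type 2 genes were lower and 3 higher in female MEFs, compared with 19.8% and 18.9% of all genes. In KO 2 genes were lower and 2 higher, compared with 19.7% and 18.9%. Groups did not overlap for 6 of 9 genes in wild type and 5 of 9 in KO, beside 51.9% and 50.2% of all genes, so differences of this kind were frequent throughout the transcriptome. With 3 against 3 libraries an exact permutation test of a single gene cannot go below p = 0.1.

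Ltbp2 had the largest difference of the group. Wild-type means were 117.7 ± 17.1 CPM for female and 298.8 ± 52.5 CPM for male MEFs (SD, n = 3 each), which is 2.54-fold lower in female MEFs (log2 fold change -1.34, SE 0.241, adjusted p = 0.00149, edgeR). In KO the means were 120.5 ± 44.1 and 312.9 ± 70.6 CPM (SD, n = 3 each), 2.59-fold lower (log2 fold change -1.38, SE 0.241, adjusted p = 0.00134, edgeR). It was the 1 gene of the group past both thresholds, lower in female MEFs in each genotype, as were 1.55% of all genes in wild type and 1.58% in KO. The highest female library (171.2 CPM) was below the lowest male library (243.1 CPM). The call held under all 14 alternatives in each genotype. Without both male libraries numbered 3, which had the highest Ltbp2 levels, the log2 fold changes were -1.22 and -1.18.

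Smad7 was 1.5-fold lower in female than in male wild-type MEFs (log2 fold change -0.58, SE 0.0687, adjusted p = 0.000134, edgeR) and 1.53-fold lower in KO MEFs (log2 fold change -0.62, SE 0.0687, adjusted p = 9.31e-05, edgeR). All 6 female values, 62.9 to 71.8 CPM, lay below all 6 male values, 95.8 to 111.0 CPM. An adjusted p under 0.05 was kept in all 14 alternatives in each genotype, and the fold change stayed under the limit of 1 on the log2 scale.

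Ctgf was 1.18-fold higher in female wild-type MEFs (log2 fold change 0.24, SE 0.0569, adjusted p = 0.00679, edgeR) and 1.15-fold higher in KO MEFs (log2 fold change 0.20, SE 0.0569, adjusted p = 0.0189, edgeR). The difference in wild type kept an adjusted p under 0.05 in 14 of 14 alternatives. In KO it did so in 11 of 14, and the adjusted p was 0.0525 without replicate 1 of female KO, 0.0632 without replicate 3 of female KO and 0.0582 without replicate 3 of male KO. Its paralog Cyr61 did not pass in either genotype (log2 fold changes 0.099 and 0.013, adjusted p = 0.14 and 0.855, edgeR). In wild type Cyr61 had an adjusted p of 0.0101 without replicate 3 of male wild type and of 0.00607 without both male libraries numbered 3 (edgeR), with log2 fold changes of 0.16 in each.

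Tgfbr2 was 1.22-fold higher in female MEFs of both genotypes (log2 fold changes 0.29 and 0.29, adjusted p = 0.0137 and 0.0146, edgeR). The adjusted p rose to 0.0517 without replicate 1 of female wild type, to 0.0567 without replicate 1 of male wild type and to 0.0652 without replicate 3 of female KO. The partner receptor Tgfbr1 had log2 fold changes of 0.030 and -0.095, with adjusted p = 0.777 and 0.347 (edgeR). Reads of Tgfbr2 and Ctgf in 12 and of Ltbp2 in 11 libraries gave expected counts that were not whole, so RSEM had divided some of their reads among several genes. The other 6 genes had whole counts in every library, within 1e-06 of a count.

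The ligands differed between the sexes in 1 genotype at most. Tgfb2 was higher in female wild-type MEFs (log2 fold change 0.35, SE 0.126, adjusted p = 0.0443, edgeR), and an adjusted p under 0.05 was kept in 6 of 14 alternatives. It was lost without replicate 1 or 2 of female wild type or without any 1 of the 3 male wild-type libraries, at an adjusted p of 0.063 to 0.169 (edgeR). It was also lost without both male libraries numbered 3 (0.0646), without a filter on low counts (0.055) and with DESeq2 (0.0696). In KO the log2 fold change was 0.058 (adjusted p = 0.745, edgeR). Tgfb3 had log2 fold changes of 0.039 in wild type (adjusted p = 0.864, edgeR) and -0.40 in KO (adjusted p = 0.0613, edgeR), where the 3 female libraries were below the 3 male libraries and the adjusted p was 0.0311 without replicate 3 of female KO, 0.0372 with only the libraries compared, 0.0486 with library size alone, 0.0491 without a filter on low counts and 0.13 without both male libraries numbered 3. Tgfb1 had -0.20 in wild type (adjusted p = 0.0534, or 0.0411 without replicate 1 of male wild type, 0.0284 with the replicate block and 0.136 without both male libraries numbered 3, edgeR) and -0.056 in KO (adjusted p = 0.59, edgeR). The differences between the genotypes in these comparisons are the sex differences in the KO effect given above, and none of them passed.

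**Figure D3:**
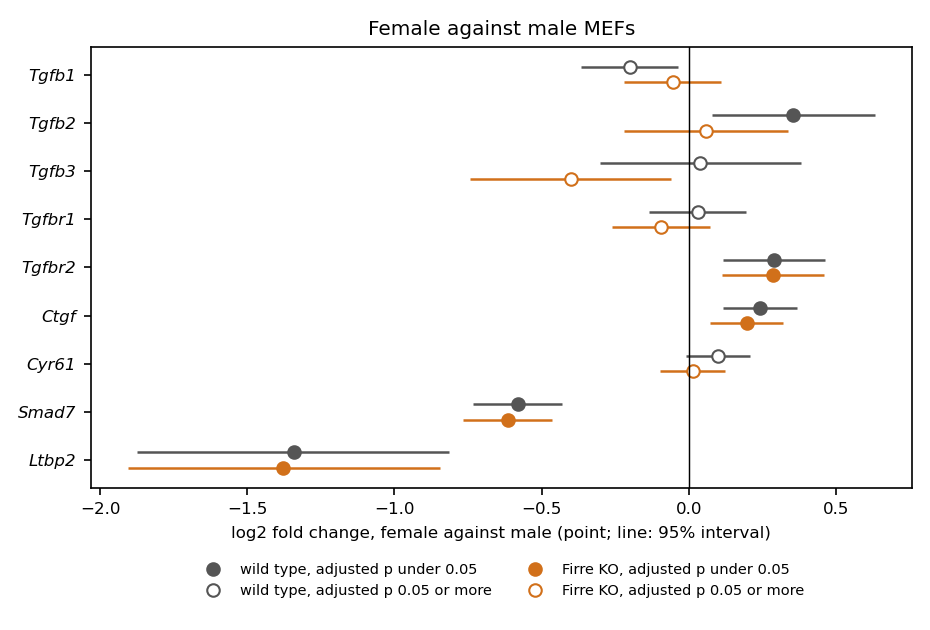
Log2 fold change of female against male MEFs (x axis) for each of the 9 genes, in wild type and in Firre KO. Points are edgeR estimates from 3 against 3 libraries, lines 95% intervals, and filled symbols an adjusted p under 0.05. Ltbp2 (-1.34 and -1.38) and Smad7 (-0.58 and -0.62) lie on the lower side in both genotypes, Ctgf and Tgfbr2 on the higher side.

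Markers of other cell types moved with sex as well. All 8 of 8 macrophage markers had a higher fitted level in female MEFs of both genotypes, with a summed level of 36.9 to 119.5 CPM in female and 6.79 to 15.2 CPM in male libraries, and none of them was at 0 in any library. So had all 7 of 7 epithelial markers (summed 74.6 to 128.7 CPM, compared with 40.8 to 53.7 CPM in male libraries), of which Krt19 made up 49.8 to 64.6 CPM in female libraries. Summed levels overlapped between the sexes for skeletal muscle (87.9 to 144.6 CPM in female and 80.6 to 146.9 CPM in male libraries), neural cells (51.2 to 67.6 and 44.9 to 59.6 CPM) and cartilage (161.3 to 387.8 and 75.1 to 492.3 CPM). Those for endothelium were 25.0 to 35.4 and 17.1 to 23.3 CPM, mostly from Kdr, and did not overlap. The muscle genes Myod1, Myog and Myf5 and the neural gene Elavl3 had no counts in at least 1 male library. The endothelial gene Tie1 had none in at least 1 library of female wild type and of each male group, and the cartilage gene Matn1 had none in at least 1 library of female wild type and in every library of male wild type. The part of these cell types and of depth in the sex differences of the TGF-beta genes was not tested. None of the tested markers passed an adjusted p under 0.05 between KO and wild type in either sex (edgeR). The median log2 fold change of the 7 epithelial markers was -1.22 in female KO and 0.21 in male KO MEFs. Krt5 (0.988 to 14.3 CPM in female wild type, 0.365 to 0.73 CPM in female KO), Krt14 (3.01 to 17.1 and 1.08 to 2.32 CPM) and the fibroblast marker Lum (4.75 to 9.14 and 0.995 to 2.57 CPM) lay lower in all female KO than in all female wild-type libraries, and the fibroblast marker Vim higher (5126.4 to 5228.0 and 5646.5 to 5779.3 CPM). Groups did not overlap for 19.2% of all genes in this comparison. Their part in the female KO values of the TGF-beta genes was not tested.

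Beyond the 9 genes, 7 lists held 69 further genes of the pathway and its neighbours, of which 68 were tested. None of the 68 passed an adjusted p under 0.05 between KO and wild type in female or male MEFs, or in the test of the difference between the sexes (edgeR). At an unadjusted p under 0.05 there were 6, 1 and 3 of the 68 genes, beside 7.55%, 2.06% and 3.19% of all genes, and DESeq2 gave 5, 1 and 3 with none past adjustment. Without both male libraries numbered 3 there were 5 in male MEFs, beside 4.29% of all genes in that fit. With only the libraries compared in the fit there were 14 in female and 3 in male MEFs, beside 12.5% and 1.36% of all genes, and again none passed adjustment. The smallest adjusted p, 0.492 (edgeR), belonged to Nov, a relative of Ctgf, at 30.3 ± 1.65 CPM in female wild type and 20.5 ± 2.41 CPM in female KO (SD, n = 3 each).

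Between the sexes, 25 of the 68 list genes were lower and 8 higher in female wild-type MEFs at an adjusted p under 0.05 (36.8% and 11.8%, beside 19.8% and 18.9% of all genes). In KO 25 were lower and 7 higher (36.8% and 10.3%, beside 19.7% and 18.9%). In both genotypes with the same sign, 22 were lower and 5 higher (32.4% and 7.35%, beside 15.5% and 14.7% of all genes). Without both male libraries numbered 3, the number of list genes past the threshold went from 33 to 43 in wild type and from 32 to 37 in KO, while the share of all genes went from 38.7% to 45.1% and from 38.7% to 44.6%. These are counts on lists chosen with earlier results of these data known, and no test of the lists was made. The counts of the single lists below are likewise to be read against the 15.5% of all genes that were lower and the 14.7% that were higher in female MEFs of both genotypes.

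Among 13 genes for latency and activation of the ligands, 5 were lower in female MEFs of both genotypes. They included the storage proteins Ltbp1 (log2 fold changes -0.59 and -0.55) and Ltbp3 (-1.14 and -0.90), the cell-surface TGF-beta docking protein Lrrc32 (-0.81 and -0.58), and the integrin subunit Itgav (-0.62 and -0.60, adjusted p = 8.62e-06 and 9.76e-06, edgeR). In wild type Ltbp3 had 51.6 ± 3.41 CPM (female) and 113.8 ± 13.7 CPM (male, SD, n = 3 each). The 1 gene of this list that was higher in both, Lrrc33 (1.77 and 1.28), is the docking protein of macrophages and microglia and was low, at 2.19 ± 0.595 CPM in female wild type (SD, n = 3). The most abundant gene of the list, Thbs1, an activator of latent TGF-beta, was at 6266.7 TPM and had log2 fold changes of -0.037 and -0.18 (adjusted p = 0.683 and 0.0432, edgeR).

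Among 9 other receptors, 3 were lower in female MEFs of both genotypes and none was higher: the co-receptor Tgfbr3 (-0.98 and -0.68), Acvr1 and Bmpr1a. Of 5 Smads, Smad3 (-0.53 and -0.25) and Smad4 (-0.17 and -0.20) were lower in both. Smad2 was higher in wild type only (0.13 and 0.068, adjusted p = 0.0081 and 0.112, edgeR). Of 10 inhibitors of Smad signalling, 6 were lower in both, among them Smad6 (-0.54 and -0.65) and Skil (-0.30 and -0.43), and Fkbp1a, which binds the type I receptor, was higher (0.12 and 0.16).

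Among 15 other TGF-beta induced genes, 2 were lower in both genotypes, Junb (-0.83 and -0.63) and Postn (-0.71 and -0.77). Acta2, the smooth muscle actin of myofibroblasts, was the most abundant of them at 11656.2 TPM and did not pass (0.19 and 0.12, adjusted p = 0.105 and 0.308, edgeR). Of 8 other Yap and Tead target genes, Amotl2 (0.36 and 0.31) and Lats2 (0.40 and 0.34) were higher in both and none was lower in both. Axl, the most abundant, had -0.28 and -0.10 (adjusted p = 0.00184 and 0.129, edgeR), and was thus lower in wild type only.

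Of 8 immediate early genes, 4 were lower in female MEFs of both genotypes and none was higher. In wild type Egr1 had 46.1 ± 0.456 CPM (female) and 203.0 ± 44.5 CPM (male, SD, n = 3 each), with log2 fold changes of -2.14 and -2.15. Fos had -2.12 and -2.48. Ier3, the most abundant per length, had -0.18 and -0.22 and did not pass. The median log2 fold change of this list was -0.81 in wild type and -0.83 in KO, whereas that of all tested genes was -0.0052 and -0.0041. The medians of the other lists lay between -0.26 and 0.18 in wild type and between -0.20 and 0.16 in KO.

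**Figure D4:**
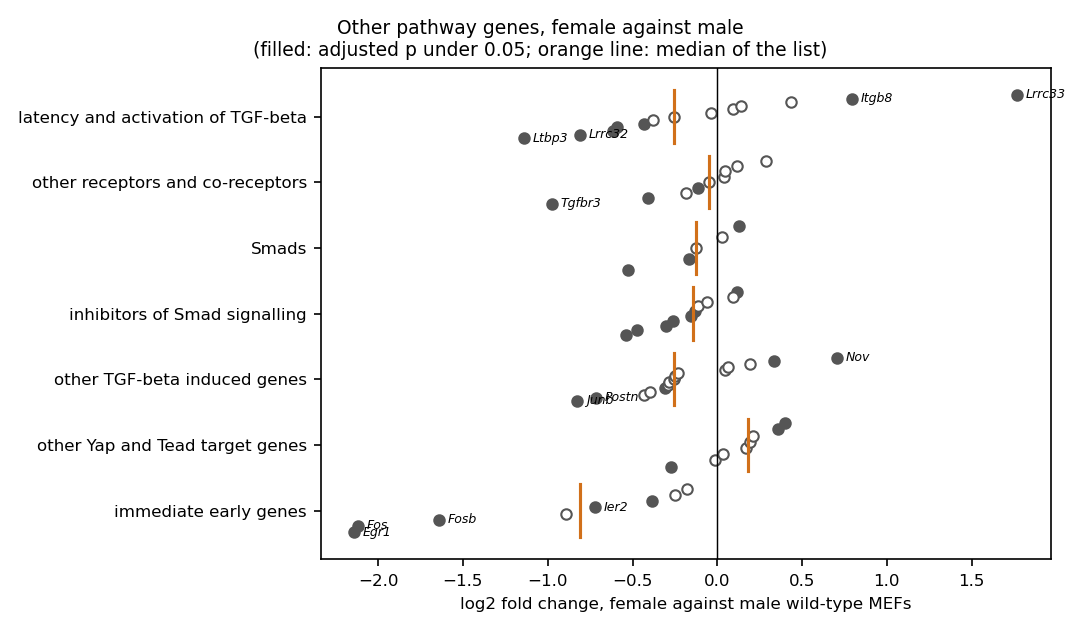
Log2 fold change of female against male wild-type MEFs (x axis) for 68 further genes in 7 lists. Each point is 1 gene from the edgeR fit with 3 against 3 libraries, filled points have an adjusted p under 0.05, and orange lines mark the median of each list. Genes below 0 outnumber those above 0 among the filled points (25 against 8), and the immediate early genes have the lowest median (-0.81).

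Variation between replicates differed among the genes. Over 8836 genes with a mean of at least 10 CPM, the median coefficient of variation was 3.53% in female wild type, 3.99% in female KO, 5.41% in male wild type and 5.7% in male KO. Of the 9 genes, 7, 7, 8 and 6 lay above these medians. The highest values were 22.2% for Tgfb3 in female wild type and 36.6%, 17.6% and 22.6% for Ltbp2 in the other groups. Cyr61 had the lowest value of the 9 in 3 groups, 1.56% to 3.17%, and Tgfbr1 in male wild type (4.33%).

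To ask whether ligands and targets rose and fell together, Pearson's r of log2(CPM + 1) was computed for all 36 pairs of the 9 genes over the 6 libraries of each sex, wild type and KO together. The sexes form separate clusters for several genes, so no r was taken over all 12 libraries. Each r therefore mixes differences between genotypes with variation among replicates, and these were not separated. Each of the 72 relations was tested with an exact two-sided permutation test, for which the smallest p is 0.00139. None passed after Benjamini-Hochberg adjustment, with a smallest adjusted value of 0.133 in female and 0.1 in male MEFs. The value of 0.1 belonged to Tgfb3 with Cyr61 in male MEFs, whose permutation p was the smallest possible. A single pair could therefore not pass 0.05 over 72 relations, and the adjustment cannot decide on single pairs. At an unadjusted p under 0.05 there were 7 pairs in female and 6 in male MEFs. Male libraries with the same number deviate together, so the 6 male libraries were not shown to be independent.

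Of the 12 pairs of a ligand with Ctgf, Cyr61, Smad7 or Ltbp2, 7 were positive in female and 8 in male MEFs, and 5 had the same sign in both. The pairs named next were chosen after their values were seen. Tgfb3 and Ctgf had r = 0.902 in female MEFs (n = 6, exact permutation p = 0.0139, adjusted 0.143) with rho = 0.829 (exact permutation p = 0.0583), and r = 0.964 without the 2 libraries farthest from the median of Tgfb3. In male MEFs the same pair had r = 0.405 (exact permutation p = 0.406) and rho = 0.543 (exact permutation p = 0.297). Tgfb2 and Ctgf had r = 0.853 in female MEFs (exact permutation p = 0.0264, adjusted 0.211, rho = 0.943, permutation p = 0.0167, r = 0.64 without 2 libraries) and r = -0.172 in male MEFs (exact permutation p = 0.768). Tgfb3 and Cyr61 had r = 0.919 in male MEFs (exact permutation p = 0.00139, adjusted 0.1, rho = 1.0, permutation p = 0.00278, r = 0.993 without 2 libraries) and r = 0.251 in female MEFs (exact permutation p = 0.617).

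The targets Ctgf and Cyr61 had r = 0.338 in female MEFs (exact permutation p = 0.507, rho = 0.314, permutation p = 0.564) and r = 0.632 in male MEFs (exact permutation p = 0.178, rho = 0.543, permutation p = 0.297). Without the 2 libraries farthest from the median these values were -0.359 and -0.263, so the positive sign rested on those libraries. Tgfb2 and Tgfb3 had r = 0.933 in female MEFs (exact permutation p = 0.00972, adjusted 0.14, rho = 0.943, permutation p = 0.0167) and r = -0.912 in male MEFs (exact permutation p = 0.0444, adjusted 0.254, rho = -0.657, permutation p = 0.175). Without 2 libraries they were 0.974 and -0.0832, and the difference between the sexes was not tested. Tgfbr1 and Ltbp2 were positive in both sexes, with r = 0.853 in female (exact permutation p = 0.0403, adjusted 0.254, rho = 0.943, permutation p = 0.0167) and r = 0.921 in male MEFs (exact permutation p = 0.00556, adjusted 0.133, rho = 0.943, permutation p = 0.0167), and 0.888 and 0.629 without 2 libraries.

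Negative relations occurred as well. In female MEFs Tgfb1 had r = -0.94 with Tgfb2 (n = 6, exact permutation p = 0.00833, adjusted 0.14, rho = -0.829, permutation p = 0.0583, r = -0.705 without 2 libraries) and r = -0.87 with Tgfbr2 (exact permutation p = 0.00556, adjusted 0.133, rho = -0.943, permutation p = 0.0167, r = -0.94 without 2 libraries). In male MEFs the same pairs had r = -0.334 and 0.251 (exact permutation p = 0.49 and 0.65). Without 2 libraries they were 0.169 and 0.394. Over ligands and targets, r ran from -0.725 (Tgfb1 and Ctgf) to 0.902 in female MEFs and from -0.778 (Tgfb2 and Ltbp2) to 0.919 in male MEFs, and these lowest values became 0.0402 and 0.361 without 2 libraries.

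**Figure D5:**
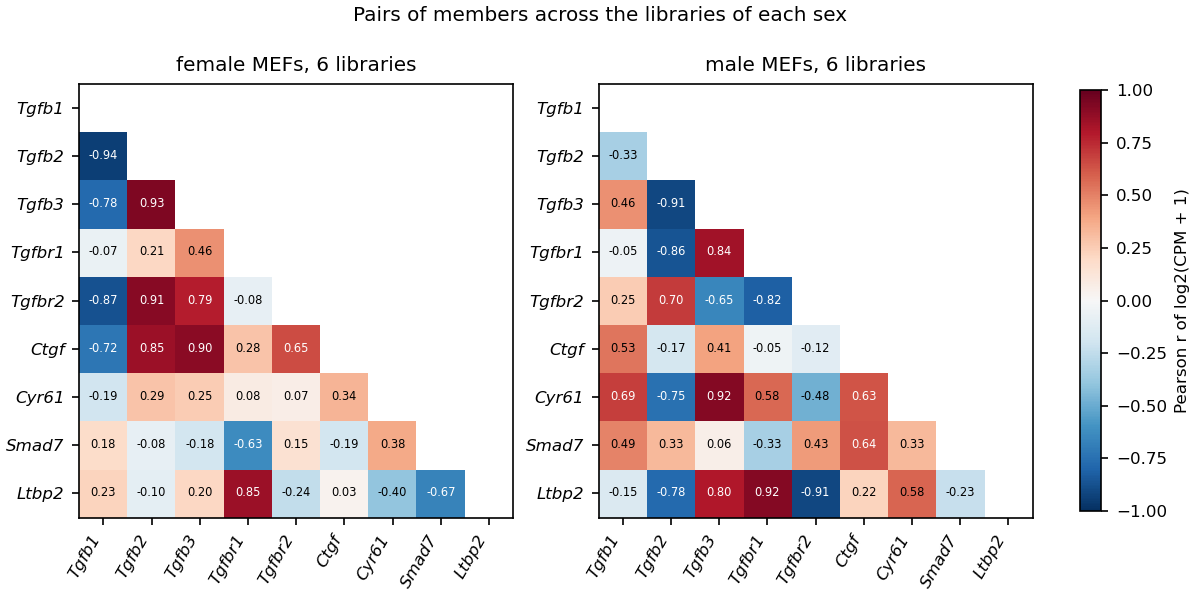
Pearson's r of log2(CPM + 1) for each pair of the 9 genes over the 6 female libraries (left) and the 6 male libraries (right), on a colour scale from -1 to 1. Tgfb2 and Tgfb3 have 0.93 on the left and -0.91 on the right, and 19 of the 36 pairs have the same sign in both panels.

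The genes whose levels followed each member most closely were ranked by the mean of r in the 6 female and r in the 6 male libraries, over 8815 other genes with at least 10 CPM. For Tgfb3 they were Golga1 (0.958), Gopc (0.952) and Arl5a (0.951), and for Tgfb2 they were Tmed4 (0.961), Atp6v0e (0.949) and Pcyox1 (0.946). Tgfb1 was followed by Polr2i (0.88), S100a13 (0.86) and the hyaluronan synthase Has2 (0.856), which was itself at 130.6 CPM.

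For Ltbp2 the nearest genes were the kinase gene Rps6ka3 (0.954), BC005537 (0.931) and Rap2a (0.921). For Smad7 they were Nupl2 (0.923), Cwc15 (0.895) and Ttc13 (0.894). For Ctgf they were Shoc2 (0.968), Fermt2 (0.955), which encodes an integrin activator at focal adhesions, and Ppme1 (0.926), and for Cyr61 they were Atad1 (0.914), the ubiquitin ligase gene Ube3a (0.899) and Cul5 (0.895). None of the 7 genes followed in this way had another of the 9 genes among its top 3. With 6 libraries in each sex and 8815 genes ranked, high values are frequent, and these are descriptions without a test.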

How the data were processed

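RNA-seq expected counts per gene of 12 MEF libraries were analysed, and the other samples and the Hi-C tables of the study were not used here. Per the labels, the authors processed the reads with Bowtie2 and RSEM 1.2.29 (mm9) and deposited expected counts without scaling. After rounding, quasi-likelihood tests were run in edgeR 4.0.16 under R 4.3.3. They used TMM normalization, the filter of filterByExpr, 1 mean per sex and genotype (8 residual degrees of freedom, common biological coefficient of variation 0.114) and Benjamini-Hochberg adjustment over 15387 genes. The thresholds were those of the study. CPM used unrounded counts and TMM library sizes, and TPM the merged exon length of the mm9 annotation, which held all 37310 identifiers. The depth of 42986516 to 65454660 counts per library sets the precision of low genes. The procedure was tested on simulated data.

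The members and gene lists were chosen with earlier results of these data known. The genes named were the 9 members, Firre, the 3 genes most like 7 of the members, and from the pathway lists the genes that were called and the most abundant gene of each list. Other list genes named were chosen after their values were seen. Exact permutation tests used SciPy 1.17.1 and plots matplotlib 3.10.9. Promoters came from RefSeq (GRCm38.p6).

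The libraries of male wild type and male KO with the same replicate number deviated together from their group means (r = 0.237, 0.413 and 0.495). Between female KO and male KO these values were 0.202, -0.0662 and -0.144. Both male libraries numbered 3 stood apart from their groups, and a pairing of the other male libraries was not tested without them. The labels state no pairing. The alternatives were DESeq2 1.42.0, DESeq2 size factors, library size alone, at least 10 counts in every library, no filter at all, an adjusted p under 0.05 without a fold limit, only the libraries compared, the replicate number as a block, each library left out in turn, and the longest transcript for TPM. A fit of the male libraries alone with the replicate block, and one without both male libraries numbered 3, were added after the data were seen.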

Additional observations from a re-analysis of the deposited data

How the results depend on the processing

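No call of a TGF-beta gene between KO and wild type, or in the difference between the sexes, was gained under any alternative, and Ltbp2 was called in both comparisons of female with male MEFs under all 14. The count of all genes called in female KO MEFs was 1 and became 2 at an adjusted p under 0.05, 4 with DESeq2 and 0 with at least 10 counts, with only the libraries compared or with the replicate block. In male KO MEFs the 1 called gene became 2 with DESeq2 and 0 with at least 10 counts, with only the libraries compared, with the replicate block and with the male libraries alone and the block. In the difference between the sexes, DESeq2 called 1 gene instead of 0. For these counts the cause was not tested. With each library left out the counts in KO were 1 to 1. Female against male, an adjusted p under 0.05 raised the counts from 698 to 5953 in wild type and from 599 to 5949 in KO, and those of the TGF-beta genes from 1 to 5 and from 1 to 4, where the p limit was raised and the fold limit dropped together. Only the libraries compared gave 370 in KO. With each library left out there were 432 to 661 genes in wild type (432 without replicate 1 of male wild type) and 329 to 569 in KO (329 without replicate 1, 342 without replicate 2 of male KO, 376 without replicate 1 of female KO).

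The replicate block, alone or in the male fit chosen after the data were seen, left 0 TGF-beta genes at an adjusted p under 0.05 in male KO MEFs (smallest adjusted p = 1.0, edgeR). Female wild-type and KO libraries with the same number did not deviate together (r = -0.258, -0.132 and -0.183). With the block, 6 instead of 5 TGF-beta genes passed an adjusted p under 0.05 between the sexes in wild type (with Tgfb1, adjusted p = 0.0284, edgeR) and 4 in KO. DESeq2 gave 4 and 4, and only the libraries compared 5 and 5.

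Log2 fold changes near 0 turned sign. Library size alone gave -0.008 for Smad7 in female KO. Without both male libraries numbered 3, the male KO values were 0.037 for Tgfb1, -0.017 for Tgfbr1, 0.061 for Ctgf and -0.015 for Ltbp2, and Tgfb2 between the sexes in KO was -0.051. Without a filter Cyr61 between the sexes in KO was -0.004. With 1 library left out, the ranges in female KO were -0.04 to 0.04 for Smad7 and -0.306 to 0.203 for Ltbp2. In male KO they were -0.064 to 0.025 for Tgfb1, -0.051 to 0.157 for Tgfb2, -0.05 to 0.111 for Tgfb3, -0.05 to 0.08 for Tgfbr1, -0.105 to 0.023 for Tgfbr2, -0.07 to 0.038 for Ctgf, -0.013 to 0.081 for Cyr61, -0.006 to 0.099 for Smad7 and -0.133 to 0.188 for Ltbp2. In the difference between the sexes they were -0.078 to 0.05 for Tgfbr2, -0.105 to 0.003 for Ctgf, -0.091 to 0.014 for Smad7 and -0.372 to 0.168 for Ltbp2. Female against male they were -0.131 to 0.192 for Tgfb3 in wild type, and -0.052 to 0.156 for Tgfb2 and -0.015 to 0.028 for Cyr61 in KO. Without 2 libraries r became -0.359 (female) and -0.263 (male) for Ctgf and Cyr61 and 0.298 for Tgfb2 and Ctgf in male MEFs, and other pairs named above also turned sign (Tgfb1 with Ctgf in female, Tgfb1 with Tgfb2 and Tgfb2 with Ltbp2 in male MEFs). The longest transcript gave 3151.5 TPM for Ctgf, 1329.2 for Cyr61 and 22.6 for Tgfbr2. For these reversals the cause was not tested.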
